A study of Homo sapiens with 8 samples.

Results

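Homologous recombination rebuilds a broken chromosome from its intact copy, and the Fanconi anemia pathway brings the same machinery to a replication fork that has met a DNA crosslink. Both work mainly while DNA is copied: broken ends are trimmed to single strands, BRCA2 and its partners prepare them to invade the intact copy, and the kinases ATM and ATR with CHEK1 and CHEK2 hold the cell cycle. Leukemic T cell precursors divide fast, and dividing cells normally express these genes. The 35 genes described here were chosen by name, for their known roles, from the 57189 genes counted. Earlier results of these data were known when they were chosen. By role they comprised 12 genes of strand exchange, 11 genes of the Fanconi core and ID2 complex, 7 genes of end resection and DNA unwinding, and 5 genes of the checkpoint (the 4 kinases and TOPBP1).

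Messenger RNA was sequenced from CUTLL1 and TIB153, human T-cell acute lymphoblastic leukemia (T-ALL) lines, either treated with PKF118-310 or kept as controls. PKF118-310 is a small molecule that blocks the binding of β-catenin to TCF transcription factors, and the question was which genes respond to it. The labels spell the first line CUTTL1, describe the cells as not transfected and grown in RPMI medium with serum, and give neither dose nor duration. The 4 groups (CUTLL1 with PKF118-310, CUTLL1 control, TIB153 with PKF118-310, TIB153 control) were analysed as 1 library each, sequenced in 2 lanes that were summed.

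Library totals ran from 7609427 counts in control CUTLL1 to 8140391 in treated TIB153. All 10 T cell markers examined were detected, although CD2 lay at 4.12 CPM (reads of the gene scaled to a common library size by TMM) in treated and 14.1 CPM in control CUTLL1. Of 12 markers of other cell types, MS4A1 and EPCAM had 0 counts in every library, which allows up to 0.394 CPM. CD79A and PECAM1 made up most of the list's summed level, which was 62.4 CPM in treated CUTLL1 and 67.4 CPM in control CUTLL1, and 226 CPM in treated TIB153 and 236 CPM in control TIB153. Their part in the results was not tested. In bulk RNA, fewer cells in a phase of the cycle and less RNA per cell cannot be told apart.

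The 150 bases before 1 listed transcription start are given for 4 of the genes that passed the test across both lines (ATR, FANCD2, RBBP8 and RAD52) and for CHEK1 and CHEK2, the kinases downstream. The sequences are RefSeq's on GRCh38.p14, written 5′ to 3′ along the gene, for the first start listed. There were 2 starts listed for RBBP8 and for RAD52, and 3 for CHEK1. The stretches of RBBP8, RAD52, CHEK1 and CHEK2 lie inside the annotated gene spans, so starts farther upstream were not covered. Capitals mark matches on either strand to CCAAT, which binds NF-Y (as ATTGG where it lies on the other strand).
ATR, chr3:142578734-142578883, minus strand: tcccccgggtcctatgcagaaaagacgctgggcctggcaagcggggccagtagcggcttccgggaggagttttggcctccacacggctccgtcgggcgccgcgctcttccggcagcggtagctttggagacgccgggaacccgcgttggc
FANCD2, chr3:10026287-10026436, plus strand: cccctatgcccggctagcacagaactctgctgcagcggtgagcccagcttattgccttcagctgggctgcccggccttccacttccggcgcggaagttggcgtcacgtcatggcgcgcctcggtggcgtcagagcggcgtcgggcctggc
RBBP8, chr18:22933178-22933327, plus strand: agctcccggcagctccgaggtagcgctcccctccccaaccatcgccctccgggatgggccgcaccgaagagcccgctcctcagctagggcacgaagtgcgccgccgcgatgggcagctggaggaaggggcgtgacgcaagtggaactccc
RAD52, chr12:949695-949844, minus strand: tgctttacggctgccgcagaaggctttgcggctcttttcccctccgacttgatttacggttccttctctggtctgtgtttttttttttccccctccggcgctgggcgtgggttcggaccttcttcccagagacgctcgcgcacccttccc
CHEK1, chr11:125626079-125626228, plus strand: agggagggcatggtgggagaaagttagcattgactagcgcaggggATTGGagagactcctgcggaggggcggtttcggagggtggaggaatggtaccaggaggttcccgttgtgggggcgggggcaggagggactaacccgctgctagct
CHEK2, chr22:28741821-28741970, minus strand: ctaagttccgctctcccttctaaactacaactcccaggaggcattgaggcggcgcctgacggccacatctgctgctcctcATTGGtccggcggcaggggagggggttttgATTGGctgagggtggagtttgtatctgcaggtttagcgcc
The first 4 stretches held no match and CHEK1 held 1, whereas CHEK2 held 2. Over windows from 250 bases before to 50 after the start, available for 31 of the 35 genes, CCAAT was present in 14 (45.2%), against 37.1% of the windows of all tested genes and 35.7% of all 27305 windows. E2F letters (TTTCGCGC or TTTGGCGC) were in 3 windows, those of FANCC, EXO1 and TOPBP1 (9.68%, against 2.12% of tested genes and 1.18% of all windows). The CHR element TTTGAA was in 4 windows (12.9%, against 9.49% and 15.4%), and the TCF/LEF letters CTTTGA, which share TTTGA with it, in 0 of 31, against 8.57% of tested genes and 13.1% of all. Both strands were searched. A match is a description of these letters and not of binding.

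Every one of the 35 genes was detected in all 4 libraries and passed the low-count filter. The summed level of the 35 was 2729 CPM in treated CUTLL1 and 2955 CPM in control CUTLL1, and 2393 CPM in treated TIB153 and 2787 CPM in control TIB153. Per kilobase of annotated exon, the highest levels in control CUTLL1 were those of UBE2T (45.9 CPM per kb), the ubiquitin-conjugating enzyme of the Fanconi core, and TOPBP1 (40.7 CPM per kb), the scaffold that switches on ATR. RBBP8 (CtIP) followed at 37.7 and FANCI at 35.4 CPM per kb, on the same scale. At the low end stood RAD50, at 0.429 CPM per kb in control CUTLL1, with 31 to 41 counts per library. RAD50 shares 79.7% of its exonic bases with AC116366.3 on the same strand, so its reads may be counted elsewhere and its value is uncertain. RAD54B shares 59.1% with FSBP on the same strand, XRCC3 shares 76.7% with KLC1 and RAD54L shares 25.1% with LRRC41 on the opposite strand, so the values of these 3 genes are uncertain as well.

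**Figure D1:**
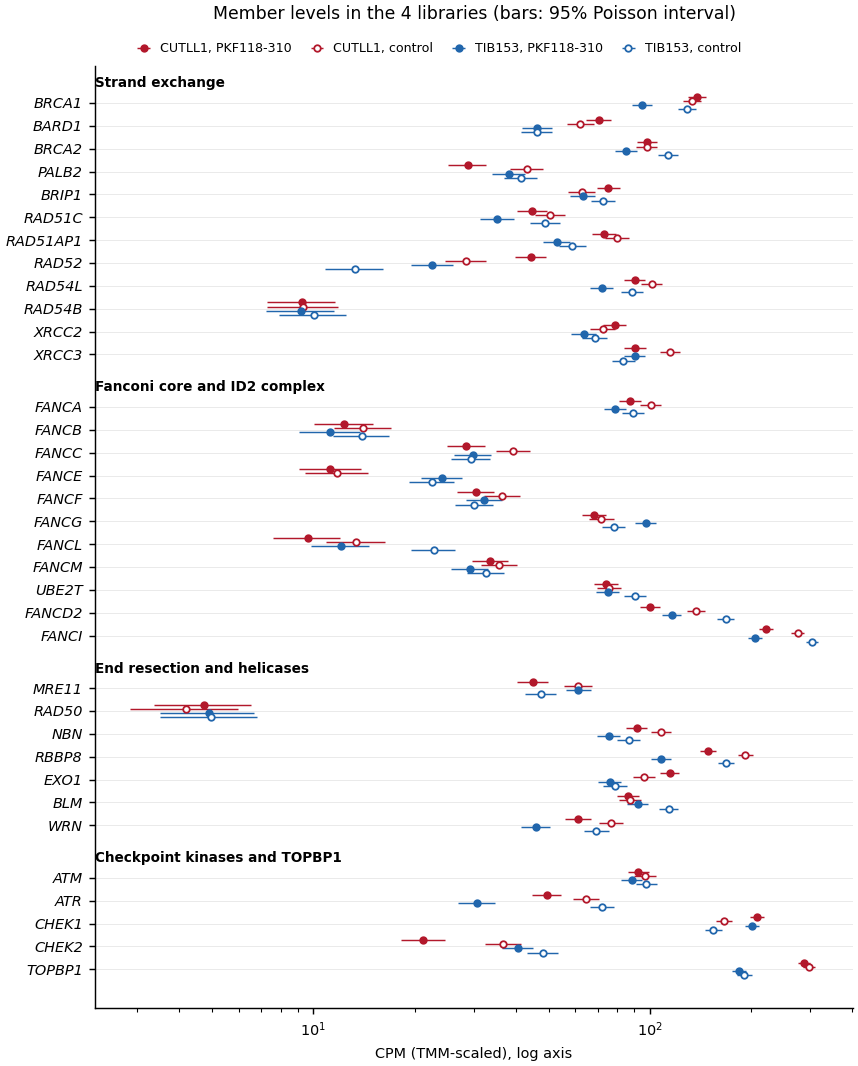
Level of each of the 35 genes in the 4 libraries, in TMM-scaled CPM on a log axis, grouped by role; filled points are PKF118-310 libraries, open points controls, red CUTLL1 and blue TIB153, with 95% Poisson intervals for counting error. Levels run from 4.19 CPM (RAD50, control CUTLL1) to 304 CPM (FANCI, control TIB153).

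With PKF118-310 most of these genes were slightly lower, a few were clearly lower, and RAD52 was higher. The median log2 ratio of PKF118-310 over control was -0.13 in CUTLL1 and -0.16 in TIB153, where the median of all 13280 genes tested was 0.00 and -0.01. In each line 26 of the 35 (74.3%) were below 0, against 49.8% and 50.8% of all genes tested in CUTLL1 and TIB153. The 35 genes were chosen with earlier results of these data known, which these comparisons do not correct for. Across both lines, edgeR's quasi-likelihood test with line as a block (n = 2 lines, 1 residual degree of freedom, Benjamini-Hochberg adjustment over all genes tested) called 4 of the 35 lower, where 6.78% of all genes tested fell, and 1 higher, where 6.11% rose. FANCD2, FANCI, RBBP8 and ATR fell and RAD52 rose, and 30 genes did not pass. At an unadjusted p under 0.05 there were 9 of the 35 (25.7%), against 28.7% of all genes tested. DESeq2 called 0 of the 35 at an adjusted p under 0.05 and 6 at an unadjusted p under 0.05 (17.1%, against 13.4% of all genes tested).

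Within a line 1 library a group was analysed, with no test. A gene is called higher or lower where its ratio is at least 1.5-fold and its 95% counting interval leaves out 0. In CUTLL1, RAD52 was called higher (9.49% of all genes tested) and CHEK2 lower (6.39%). In TIB153, RAD52 was called higher (11.4%) and 4 genes lower, namely FANCL, RBBP8, WRN and ATR (9.81%). Differences of any size beyond counting error were commoner. In CUTLL1 15 of the 35 were lower (42.9%, against 23.9% of all genes tested) and 4 were higher (11.4%, against 23.3%). In TIB153 16 were lower (45.7%, against 28.7%) and 4 were higher (11.4%, against 25.2%). The 35 genes had more reads than most: their median count was 586 in treated and 536 in control CUTLL1, against 249 and 226 over all genes tested, and a higher count narrows the interval. Lower in both lines beyond counting error were 10 of the 35 (28.6%, against 15.7%): RAD54L, FANCA, FANCL, FANCD2, FANCI, NBN, RBBP8, WRN, ATR and CHEK2. RAD52 and CHEK1 were the 2 that were higher in both (5.71%, against 13.1%).

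**Figure D2:**
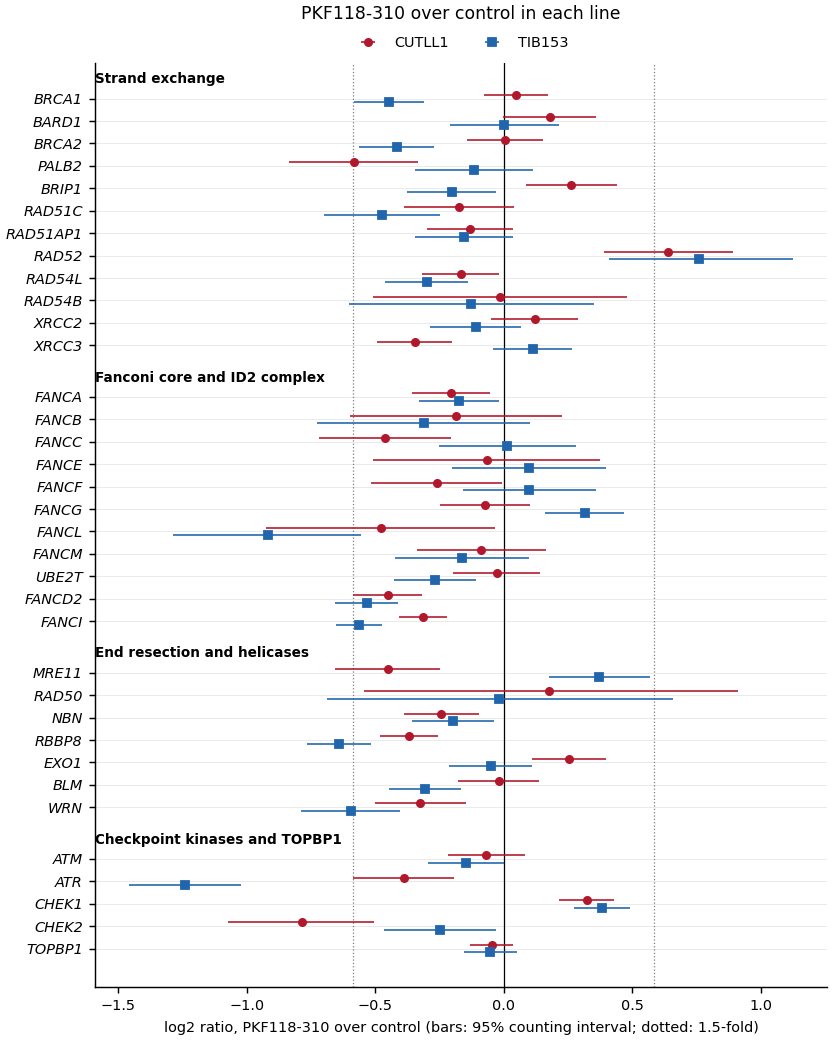
Log2 ratio of treated over control cells for each gene in CUTLL1 (red circles) and TIB153 (blue squares), with 95% counting intervals; dotted lines mark 1.5-fold. RAD52 lies right of the upper dotted line in both lines, ATR lies farthest left at -1.24 in TIB153, and CHEK2 is the lowest point of CUTLL1 at -0.79.

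Among the 12 genes of strand exchange, RAD52 was the only 1 that passed across both lines. Of this list, 6 genes were below 0 in CUTLL1 and 9 in TIB153. RAD52 anneals single strands and can back up BRCA2. It had 354 counts (44.2 CPM) in treated CUTLL1, against 210 counts (28.4 CPM) in control CUTLL1, and 189 counts (22.6 CPM) in treated TIB153, against 102 counts (13.3 CPM) in control TIB153. The treated library was the higher in each line, by 0.64 (interval 0.39 to 0.89) on the log2 scale in CUTLL1 and 0.76 (0.41 to 1.13) in TIB153. Across lines it rose 1.62-fold (log2 0.70 ± 0.19, SE, adjusted p = 0.029, edgeR), whereas DESeq2's adjusted p was 0.23. The gene spans chr12:912077-990053 on the minus strand of hg38.

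BRCA1, which directs ends towards recombination, lay at 138 CPM in treated and 134 CPM in control CUTLL1, and at 94.9 CPM in treated and 129 CPM in control TIB153. Its log2 ratio was 0.05 (-0.08 to 0.17) in CUTLL1 and -0.45 (-0.58 to -0.31) in TIB153, so the decrease beyond counting error was in TIB153. BRCA2, a mediator of strand exchange, had the same shape, at 98.1 CPM in treated and 97.8 CPM in control CUTLL1, and 85.0 CPM in treated and 113 CPM in control TIB153. Neither passed across lines (adjusted p = 0.38 for BRCA1 and 0.36 for BRCA2). BARD1, the partner of BRCA1, had 0.18 (0.00 to 0.36) in CUTLL1 and 0.00 in TIB153.

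PALB2, which links BRCA1 to BRCA2, was lower beyond counting error in CUTLL1 instead. It lay at 28.7 CPM in treated and 43.0 CPM in control CUTLL1, a log2 ratio of -0.58 (-0.83 to -0.33) that stopped just short of the 1.5-fold limit, and at 38.1 CPM in treated and 41.3 CPM in control TIB153 (-0.12, interval -0.35 to 0.11). RAD51C, which acts with XRCC3, had -0.17 in CUTLL1 and -0.47 (-0.70 to -0.25) in TIB153. RAD54L, a motor that helps strand invasion, was lower in both, at -0.17 (-0.32 to -0.02) and -0.30 (-0.46 to -0.14). XRCC3, the partner of RAD51C, had -0.35 (-0.49 to -0.20) in CUTLL1 and 0.11 (-0.04 to 0.27) in TIB153. For RAD51AP1, XRCC2 and RAD54B the intervals included 0 in both lines.

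BRIP1, the helicase that binds BRCA1, moved in opposite directions. It had 603 counts (75.3 CPM) in treated and 464 counts (62.8 CPM) in control CUTLL1, but 529 counts (63.2 CPM) in treated and 558 counts (72.7 CPM) in control TIB153. The log2 ratios were 0.26 (0.09 to 0.44) in CUTLL1 and -0.20 (-0.38 to -0.03) in TIB153. With scaling to total counts alone the TIB153 interval included 0. BRIP1 was singled out after its values were seen.

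Among the role lists, that of the Fanconi core and ID2 complex was the most uniformly low in CUTLL1. All 11 were below 0 there, against 49.8% of all genes tested, and 6 were lower beyond counting error, against 23.9%. In TIB153 7 were below 0 (50.8% of all genes tested), with 5 lower (28.7%) and 1 higher (25.2%) beyond counting error. The list's median was -0.20 in CUTLL1 and -0.17 in TIB153. The uniformity in CUTLL1 depended on the list and the scaling. Of 16 further Fanconi genes outside it, 10 were below 0 in CUTLL1, and of the 12 genes of strand exchange 6 were. UBE2T, at -0.03 (-0.20 to 0.14), was below 0 by less than the shift of 0.05 between TMM and total counts alone. The 2 genes of the Fanconi core and ID2 list that fell across lines encode the ID2 complex, the clamp that is ubiquitinated at a crosslink. FANCD2 had 802 counts (100 CPM) in treated and 1013 counts (137 CPM) in control CUTLL1, and 972 counts (116 CPM) in treated and 1289 counts (168 CPM) in control TIB153. Both treated libraries lay below both controls. Its level fell by 0.49 ± 0.12 on the log2 scale across lines, a 1.41-fold decrease (adjusted p = 0.020). The ratio in CUTLL1 was -0.45 (-0.59 to -0.32), that in TIB153 -0.53 (-0.65 to -0.41).

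FANCI, its partner, had 1771 counts (221 CPM) in treated and 2032 counts (275 CPM) in control CUTLL1, and 1722 counts (206 CPM) in treated and 2333 counts (304 CPM) in control TIB153. The treated libraries were again the 2 lowest. FANCI fell by 0.44 ± 0.13 (1.36-fold, adjusted p = 0.036), and with scaling to total counts alone the adjusted p was 0.072. FANCD2 spans chr3:10026414-10101930 and FANCI chr15:89243949-89317261, both on the plus strand of hg38.

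FANCL, the ubiquitin ligase of the core complex, was low throughout. It had 77 counts (9.62 CPM) in treated and 99 counts (13.4 CPM) in control CUTLL1, and 101 counts (12.1 CPM) in treated and 175 counts (22.8 CPM) in control TIB153. Its control TIB153 level stood apart from the other 3 libraries. The log2 ratio was -0.48 (-0.93 to -0.03) in CUTLL1 and -0.92 (-1.29 to -0.56) in TIB153, and -0.71 ± 0.25 across lines (adjusted p = 0.081, not past the threshold). UBE2T, which works with FANCL, had -0.03 (-0.20 to 0.14) in CUTLL1 and -0.27 (-0.43 to -0.11) in TIB153.

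Of the other core subunits, FANCA was lower in both lines, at -0.20 (-0.36 to -0.05) and -0.17 (-0.33 to -0.02). FANCC had -0.46 (-0.72 to -0.21) and FANCF -0.26 (-0.52 to -0.01) in CUTLL1, with intervals that included 0 in TIB153. FANCG lay at 97.2 CPM in treated and 78.2 CPM in control TIB153, at 0.31 (0.16 to 0.47), with -0.07 (-0.25 to 0.10) in CUTLL1. Of the 11 genes of the Fanconi core and ID2 list, it was the only 1 higher beyond counting error. FANCB, FANCE and FANCM had intervals that included 0 in both lines.

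In the group that trims and unwinds broken ends, RBBP8 (CtIP, which starts resection together with MRE11) had the lowest across-line value. It had 1192 counts (149 CPM) in treated and 1420 counts (192 CPM) in control CUTLL1, and 905 counts (108 CPM) in treated and 1293 counts (168 CPM) in control TIB153. Both treated libraries lay below both controls. RBBP8 fell by 0.50 ± 0.13 on the log2 scale (1.42-fold, adjusted p = 0.020). Its ratio was -0.37 (-0.48 to -0.26) for CUTLL1 cells, against -0.64 (-0.76 to -0.52) for TIB153 cells. It spans chr18:22798261-23026488 on the plus strand.

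WRN, the helicase lost in Werner syndrome, had 491 counts (61.3 CPM) in treated and 568 counts (76.8 CPM) in control CUTLL1, and 384 counts (45.9 CPM) in treated and 532 counts (69.3 CPM) in control TIB153. Its ratios were -0.32 (-0.50 to -0.15) and -0.60 (-0.79 to -0.40), and its adjusted p across lines was 0.056, just outside the threshold. BLM, the related Bloom syndrome helicase, had -0.02 (-0.18 to 0.14) in CUTLL1 and -0.31 (-0.45 to -0.16) in TIB153. EXO1, the nuclease of long resection, was higher in CUTLL1 at 0.25 (0.11 to 0.40) and had -0.05 (-0.21 to 0.11) in TIB153.

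MRE11 encodes the nuclease of the MRE11-RAD50-NBN complex, which recognizes broken ends, and had the widest gap of the genes with opposite directions. It had 359 counts (44.9 CPM) in treated and 453 counts (61.3 CPM) in control CUTLL1, but 514 counts (61.4 CPM) in treated and 364 counts (47.4 CPM) in control TIB153. Treated CUTLL1 and control TIB153 were low and the other 2 libraries high. The log2 ratios were -0.45 (-0.65 to -0.25) in CUTLL1 and 0.37 (0.18 to 0.57) in TIB153, so the across-line value was -0.04 ± 0.20 (adjusted p = 0.92). NBN, of the same complex, had -0.24 (-0.39 to -0.10) and -0.20 (-0.36 to -0.04). MRE11, too, was singled out after its values were seen.

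The checkpoint genes held the lowest value of all 35. ATR, the kinase that senses stalled forks, had 395 counts (49.4 CPM) in treated and 478 counts (64.7 CPM) in control CUTLL1, and 256 counts (30.6 CPM) in treated and 554 counts (72.2 CPM) in control TIB153. Both treated libraries lay below both controls, treated TIB153 by far the lowest. The log2 ratio was -0.39 (-0.59 to -0.19) in CUTLL1 and -1.24 (-1.46 to -1.02) in TIB153. Across lines ATR fell by 0.81 ± 0.20 (1.75-fold, adjusted p = 0.026). The gene spans chr3:142449235-142578826 on the minus strand and shares 16.4% of its exonic bases with the opposite-strand AC109992.1. ATM, the kinase of double-strand breaks, had -0.07 (-0.22 to 0.08) and -0.15 (-0.30 to 0.00).

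CHEK1 and CHEK2, the kinases that ATR and ATM act on, lay on opposite sides of 0. CHEK1 had 1664 counts (208 CPM) in treated and 1229 counts (166 CPM) in control CUTLL1, and 1683 counts (201 CPM) in treated and 1185 counts (154 CPM) in control TIB153. Its ratios were 0.32 (0.22 to 0.43) and 0.38 (0.27 to 0.49), under 1.5-fold, and its across-line value of 0.35 ± 0.12 had an adjusted p of 0.072 (0.0498 with total counts alone). CHEK2 had 170 counts (21.2 CPM) in treated and 271 counts (36.7 CPM) in control CUTLL1, and 339 counts (40.5 CPM) in treated and 369 counts (48.1 CPM) in control TIB153. Treated CUTLL1 was its lowest library, with a log2 ratio of -0.79 (-1.07 to -0.51), against -0.25 (-0.46 to -0.03) in TIB153. The across-line value was -0.50 ± 0.18 (adjusted p = 0.088, not past the threshold). CHEK1 was singled out after its values were seen. TOPBP1 had -0.05 (-0.13 to 0.04) in CUTLL1 and -0.05 (-0.16 to 0.05) in TIB153.

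The response of the lines was then compared as the log2 ratio in CUTLL1 minus that in TIB153. With 1 library a group analysed, this difference has a counting interval and no test. It reached 1.5-fold beyond counting error in the positive direction for ATR (0.85, interval 0.56 to 1.14), where 6.78% of all genes tested did, and in the negative direction for MRE11 (-0.82, -1.10 to -0.54), where 5.75% did. Next came CHEK2 (-0.54, -0.89 to -0.19), BRCA1 (0.49, 0.31 to 0.68) and FANCC (-0.48, -0.84 to -0.11). Opposite directions, each beyond counting error, were found for 2 of the 35, MRE11 and BRIP1 (5.71%, against 3.40% of all genes tested). RAD52, CHEK1 and TOPBP1 had differences near 0, at -0.12 (-0.55 to 0.30), -0.06 (-0.21 to 0.09) and 0.00 (-0.13 to 0.14).

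**Figure D3:**
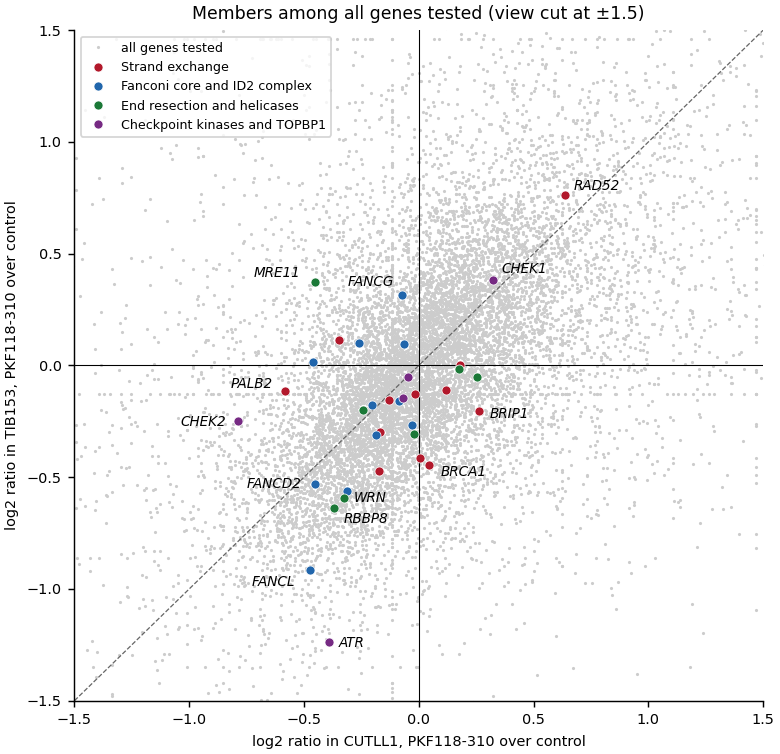
Log2 ratio of treated over control cells of CUTLL1 (x axis) and of TIB153 (y axis) for all 13280 genes tested (grey) and the 35 genes (colored by role); the dashed line marks equal ratios and the view stops at 1.5 on each axis. Of the 35 genes 20 lie below 0 on both axes, 3 above 0 on both and 12 on opposite sides, with ATR far below the dashed line and MRE11 far above it.

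Control cells of the lines were compared as CUTLL1 over TIB153. The median log2 ratio of the 35 genes was 0.06, against 0.00 over all genes tested. At 1.5-fold or more beyond counting error, 2 genes were higher in CUTLL1 (10.7% of all genes tested) and 2 were lower (15.2%). RAD52 measured 28.4 CPM in control CUTLL1, against 13.3 CPM in control TIB153, a log2 ratio of 1.09 (0.75 to 1.45). TOPBP1 measured 297 CPM in control CUTLL1, against 191 CPM in control TIB153 (0.64, interval 0.54 to 0.74). FANCE, which joins the core to FANCD2, was lower, with 87 counts (11.8 CPM) in CUTLL1 and 173 counts (22.5 CPM) in TIB153 (-0.93, -1.33 to -0.56). FANCL was lower as well (-0.76, -1.14 to -0.40). With PKF118-310 the lines kept their order for RAD52, TOPBP1 and FANCE, with counting intervals that did not overlap. Treated CUTLL1 had 44.2 CPM of RAD52, against 22.6 CPM in treated TIB153, and 288 CPM of TOPBP1, against 184 CPM. FANCE lay at 11.2 CPM in treated CUTLL1, against 24.1 CPM in treated TIB153. FANCL lay at 9.62 CPM in treated CUTLL1 (7.59 to 12.0), against 12.1 CPM in treated TIB153 (9.82 to 14.7), with overlapping intervals. At any size beyond counting error, 13 genes were higher in CUTLL1 (37.1%, against 27.6% of all genes tested) and 9 were lower (25.7%, against 27.8%).

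**Figure D4:**
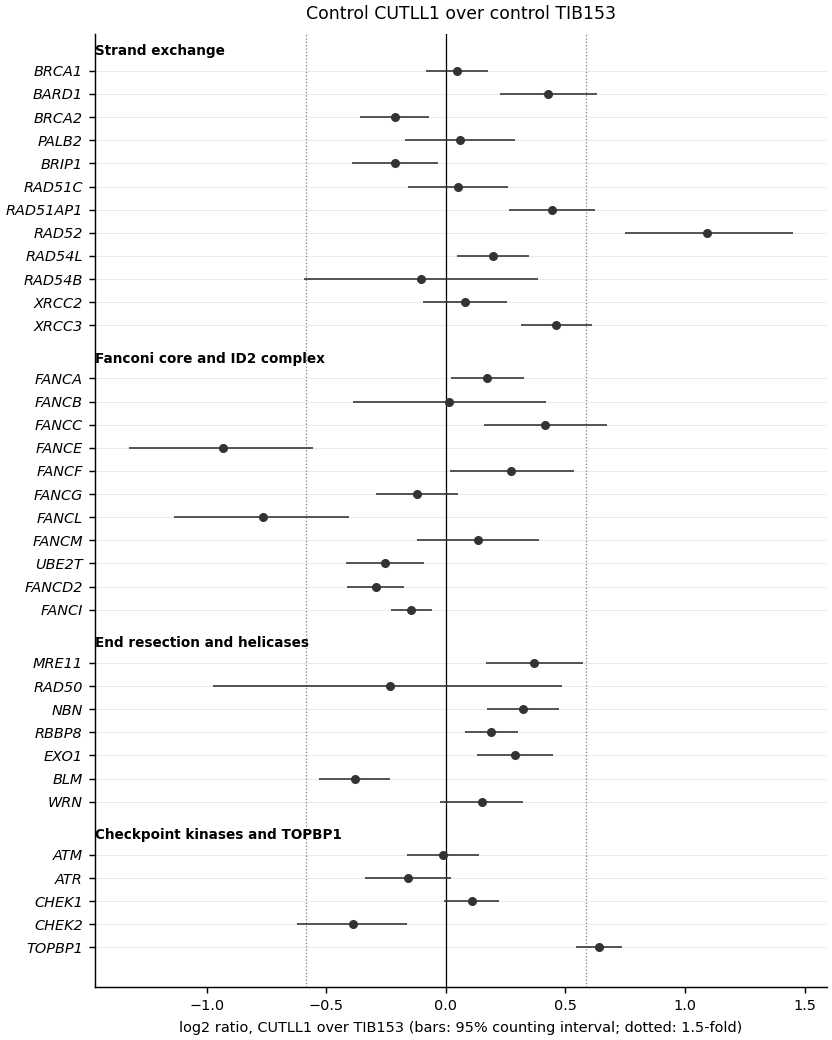
Log2 ratio of control CUTLL1 over control TIB153 for each gene, with 95% counting intervals; dotted lines mark 1.5-fold. RAD52 (1.09) and TOPBP1 (0.64) lie beyond the right dotted line, FANCE (-0.93) and FANCL (-0.76) beyond the left.

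Other repair genes were described from lists named by function. Over all 13280 genes tested, edgeR called 6.78% lower and 6.11% higher, and 28.7% had an unadjusted p under 0.05. DESeq2 called 249 of these genes lower and 194 higher. Of 26 tested recombination genes outside the 35, FIGNL1 (0.49 ± 0.14, adjusted p = 0.032) and SFR1 (0.85 ± 0.25, adjusted p = 0.041), both regulators of recombination, rose, and RPA1, the large subunit of the single-strand binding complex, fell (-0.47 ± 0.13, adjusted p = 0.028). Of 16 further Fanconi genes, 2 fell and 0 rose (edgeR), the core partners FAAP100 (-0.53 ± 0.15) and CENPX (-0.62 ± 0.16), with 4 at an unadjusted p under 0.05. Of 13 BRCA1-A complex and break signaling genes, UIMC1 (RAP80) rose (0.56 ± 0.14), while BRCC3, its deubiquitinase partner, and SHLD2 of the shieldin complex fell (-0.73 ± 0.20 and -0.72 ± 0.17). DESeq2 called 0 in any of these 3 lists. None of 11 partners of ATR passed in edgeR or DESeq2, with 3 at an unadjusted p under 0.05 in edgeR. ATRIP, the subunit that recruits ATR, had -0.55 (-0.83 to -0.28) in CUTLL1 and -0.22 (-0.50 to 0.06) in TIB153.

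The list of DNA replication genes had lower medians than the 35 genes, which had -0.13 in CUTLL1 and -0.16 in TIB153. Of 27 licensing and fork genes, 14 fell and 1, CDT1, rose in edgeR, where 6.78% of all genes tested fell and 6.11% rose. DESeq2 called 5 lower and 1 higher. The median log2 ratio of this list was -0.37 in CUTLL1 and -0.39 in TIB153. Of 16 mitosis genes, 1 (BUB1) fell and 0 rose in edgeR. At an unadjusted p under 0.05 in edgeR there were 3 of the 16, against 28.7% of all genes tested. DESeq2 also called 1 of the mitosis genes lower and 0 higher. The part of these values in the results for the 35 genes was not tested.

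**Figure D5:**
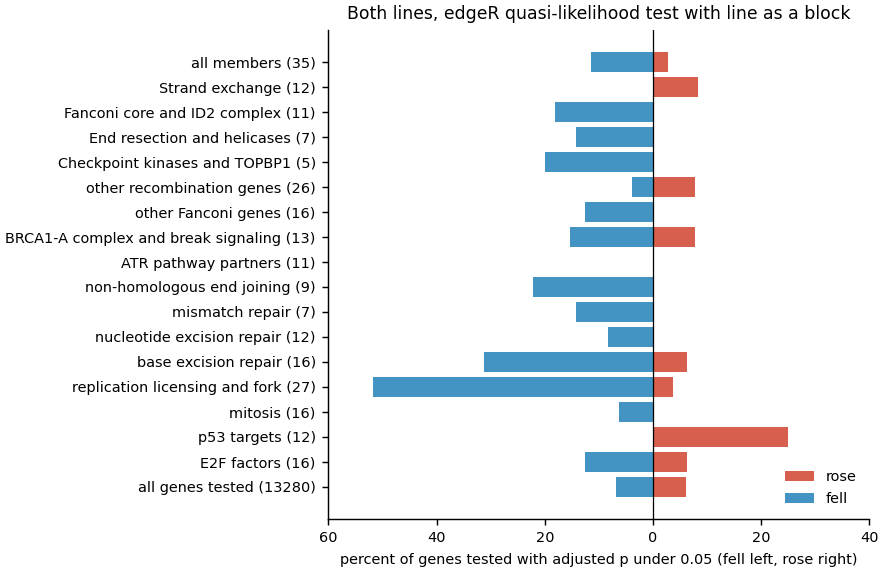
Percent of the genes tested in each list that fell (blue, left of 0) or rose (red, right of 0) with PKF118-310 across both lines at an adjusted p under 0.05 in edgeR, with the number of genes tested in brackets. The 35 genes (4 fell, 1 rose) stand at the top and all 13280 genes tested (900 fell, 812 rose) at the bottom, and the replication list has 14 of 27 that fell.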

How the data were processed

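RNA from 4 libraries (CUTLL1 and TIB153, each with PKF118-310 or as control) was measured as poly(A) RNA-seq with a stranded kit. The authors deposited 8 lane files of whole-number counts per gene, not normalized, and HISAT2, HTSeq, DESeq2 and hg38 are named, without versions, in the processing notes of the submitters. The strand setting of HTSeq is not stated in the labels or the paper. The 2 comparison tables of the authors hold fold changes and p-values and were not used, nor were the 8 per-sample count columns in them, whose names match no single sample. These columns differ from the lane sums, have the depth of whole libraries and may hold a second library of each group, which was not analysed here. The paper's heatmap of these lines labels 2 placebo-treated controls and 2 treated samples. Lanes differed by no more than sampling noise (chi-square per degree of freedom 0.990 to 1.02 over genes with 10 or more counts) and were summed, so n = 1 library a group.

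Genes were filtered with filterByExpr, which left 13280, and scaled by TMM (edgeR 4.0.16, limma 3.58.1, R 4.3.3). Ratios within a line used 0.5 added counts and 95% exact binomial intervals (scipy 1.17.1), and those of the response difference were normal approximations from the counts. All intervals cover counting error only. Across lines edgeR's robust quasi-likelihood test had line as a block, and 1 residual degree of freedom was joined to a median of 13 from the prior, so its errors rest mostly on a spread pooled over genes. Each SE (±) was derived from the test, as the size of the log2 ratio over the square root of its F statistic. DESeq2 1.42.0 was an alternative, as were other scalings, filters and single lanes. The methods were tested on simulated data. Positions and shared exonic bases came from GENCODE release 29, whose coordinates 99.5% of 11796 well-counted genes carried, and a gene sharing over 25% of them was called uncertain. Genes were described with all values where they passed across lines or reached 1.5-fold within a line or between controls at 5 CPM, and genes of other lists where they passed or changed most. A few genes of these lists are not reported here. The members and lists were chosen with earlier results of these data known.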

Additional observations from a re-analysis of the deposited data

Results flagged for a closer look

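MRE11 and BRIP1 were set apart because the lines moved in opposite directions, each beyond counting error. For MRE11 the log2 ratio in CUTLL1 minus that in TIB153 was -0.82, and for BRIP1 it was 0.47. The difference was not tested, since 1 library a group was analysed in each line. Opposite directions of this kind were found for 3.40% of all genes tested. For BRIP1 they depended on the scaling, since with total counts alone its interval in TIB153 included 0.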

How the results depend on the processing

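Values within a line rest on the 1 library a group analysed here, and leaving out a line leaves the other line's ratio alone. Across lines, 4 fell and 1 rose: DESeq2 called 0 and 0, while without the low-count filter 7 fell (FANCL, WRN and CHEK2 added), and with total counts alone 2 rose (CHEK1 added) and FANCI was lost. Without that scaling 60.3% of all calls were rises, against 47.4% with TMM, for a shift of all ratios by 0.05 in CUTLL1 and 0.06 in TIB153. FANCD2, RBBP8, ATR and RAD52 passed in 4 of 5 alternatives, DESeq2 being the exception (adjusted p over alternatives 0.0025 to 0.13, 0.0017 to 0.11, 1.69e-05 to 0.071 and 0.016 to 0.23 in that order), FANCI in 3 of 5 (0.0063 to 0.14).

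Within CUTLL1, 1 gene was called lower and 1 higher. The lower count was 2 with DESeq2's size factors (RLE), 4 with lane 2 alone and 0 at a 2-fold limit, and the higher count was 0 with lane 1 alone and 0 at 2-fold. In TIB153, 4 genes were lower and 1 higher; the lower count was 2 with total counts alone and 1 at 2-fold (ATR), and the higher count 0 at 2-fold. Between controls, 2 were lower and 2 higher in CUTLL1; at 2-fold 0 were lower and 1 higher, and with lane 2 alone 1 was higher. Opposite directions beyond counting error were found for 2 genes with both lanes and for 1 with lane 1 or lane 2 alone. With total counts alone 2 were found as well, but they were not the same genes. BRIP1 had -0.14 in TIB153 there, with an interval that included 0, and XRCC3, an uncertain gene, took its place. With lane 2 alone BRIP1 had -0.09 in TIB153. Leaving out the 4 genes that share over 25% of their exonic bases, an alternative chosen after the data were seen, kept the counts at 1.5-fold within each line and between controls and the counts across lines. Of 275 values recomputed for single genes and list medians, 263 stayed on their side of the threshold or lay within counting error, and 0 of the calls changed sign. The other 12 were the 10 gains and losses across lines by gene and alternative, and the CUTLL1 ratio of TOPBP1 by lane (-0.17 and 0.07). List medians were held to the counting error of a typical single gene, which is a wide margin for a median. With total counts alone the median of the 35 genes was -0.08 in CUTLL1 and -0.10 in TIB153, against -0.13 and -0.16 with TMM.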

Other observations

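PRKDC, the catalytic kinase of non-homologous end joining, lay at 542 CPM in treated and 960 CPM in control CUTLL1, and at 426 CPM in treated and 1100 CPM in control TIB153, and fell by 1.10 ± 0.15 on the log2 scale across lines (edgeR, adjusted p = 0.0014). XRCC5 (Ku80) fell by 0.62 ± 0.14, and 2 of the 9 tested genes of that pathway fell in DESeq2 as well, against 249 of all 13280. In base excision repair 5 of 16 genes fell in edgeR (6.78% of all genes tested), among them the uracil glycosylase UNG (-0.63 ± 0.12), and NEIL1 rose (6.11%). At an unadjusted p under 0.05 in edgeR there were 7 of the 16, against 28.7% of all genes tested. DESeq2 called 1 of the 16 lower and 0 higher. POLA1, the primase-bound polymerase, fell by 1.14 ± 0.17 and the helicase subunit MCM6 by 0.87 ± 0.12. Of 12 p53 targets, CDKN1A (2.43 ± 0.37), TP53INP1 (1.77 ± 0.35) and SESN2 (1.04 ± 0.17) rose and 0 fell in edgeR. Of all genes tested, 6.11% rose and 6.78% fell.

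Mismatch repair differed between the control lines. MLH3 had 85 counts (11.5 CPM) in control CUTLL1 and 2 counts (0.261 CPM) in control TIB153, and 21 counts in treated CUTLL1 and 6 counts in treated TIB153. MSH6 lay at 31.8 CPM in control CUTLL1 and 112 CPM in control TIB153.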
